A study of Aconitum carmichaelii with 4 samples.

Results

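Of the 128183 unigenes assembled for Aconitum carmichaelii, 79 had no fragment at all in the leaf library although each was well represented in root, bud and flower. A unigene is a transcript sequence assembled from the reads without a genome. The 79 unigenes were chosen by their fragment counts, with 0 fragments in leaf, at least 20 in each of root, bud and flower, and no tissue holding 90% or more of the TPM, an abundance measure scaled to the same sum in each library, added over the 4 tissues. Their low leaf values are therefore a description of how they were picked and not a finding. The limits other than the leaf count were met by 14646 unigenes, called the pool here, of which the 79 made up 0.539%. The 79 unigenes came from 77 Trinity genes, the assembler's groups of related transcripts, and from 71 read clusters, its wider groups.

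One library was sequenced from each of leaf, root, bud and flower of 3-year-old plants grown under natural conditions and given no treatment. No tissue had a replicate, so differences between tissues could not be tested and no p-value is given. The number of plants behind each library, and whether the 4 tissues came from the same plants, were not given in the sources used here. Intervals in brackets are exact 95% intervals for counting error only, and they cover neither copies made by PCR nor differences between plants.

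A. carmichaelii is a medicinal and poisonous plant of the buttercup family whose roots accumulate aconitine-type diterpene alkaloids. Leaf, root, bud and flower differ in how much of their tissue is dividing, building cell walls or fixing carbon, and transcripts of these processes differ between organs in plants generally. Histones H3 and H4 package DNA, and many but not all of their genes are transcribed mainly in dividing plant cells. Endoglucanases of glycosyl hydrolase family 9 cut cellulose chains and take part in building and loosening the cell wall.

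The library totals lay between 4811266 fragments in root and 7057551 in flower, with 5400853 in leaf. A single undescribed unigene, TR43559|c0_g1_i1, held 842454 leaf fragments, or 15.6% of that library. The photosynthesis unigenes with a description were few. The photosystem II cytochrome b559 alpha subunit (TR1164|c0_g1_i1) had 26 fragments in leaf, 0 in root, 2 in bud and 6 in flower. Photosystem II K (TR1224|c0_g1_i1) had 12, 8, 2 and 3 fragments in leaf, root, bud and flower, so both had their highest count in the library labelled leaf. The other 5 described unigenes of this list were of a rubisco-binding chaperonin, of which 4 were highest in leaf, while TR38483|c0_g1_i1 had 165 FPKM in leaf, 58.1 in root, 194 in bud and 170 in flower.

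A count of 0 allowed up to 3 leaf fragments. For the 79 unigenes this upper limit corresponded to a median of 0.558 FPKM, the number of fragments scaled to transcript length and library total. Their median level was 13.1 FPKM in root, 20.5 in bud and 11.7 in flower, with ranges of 1.42 to 1537, 3.57 to 912 and 1.88 to 686 FPKM. Set against the 3-fragment limit, each unigene was at least 5.12-fold lower in leaf than in the lowest of its other tissues, with a median bound of at least 10.6-fold and a highest of at least 551-fold. With the counting error of both libraries included, the exact lower limits had a lowest value of 3.79-fold and a median of 8.09-fold. Had a unigene been present in leaf at the level of its lowest other tissue, between 15.3 and 1654 leaf fragments would have been counted, with a median of 31.9. Together the 79 unigenes held 0.286% of the root fragments, 0.509% of the bud fragments and 0.362% of the flower fragments.

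**Figure D1:**
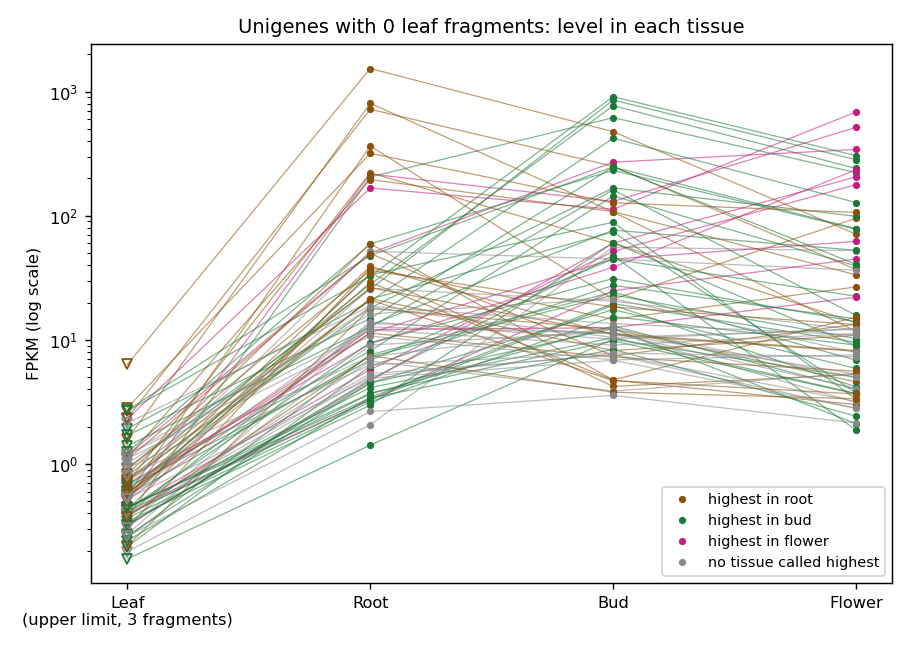
Level of each of the 79 unigenes, in FPKM on a log scale, in leaf, root, bud and flower. Open triangles are the leaf upper limits given by 3 fragments, points are measured levels, and each line joins the values of 1 unigene, coloured by the tissue called highest (20 root, 31 bud, 9 flower, 19 none).

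The 79 unigenes did not stand clear of the rest of the pool in leaf. Leaf counts of 1, 2 and 3 fragments were found for 62, 45 and 55 pool unigenes. There was no gap between 0 and 1 fragment, although each count from 1 to 8 was found for fewer unigenes, between 45 and 72, than the 79 at 0. Just outside by leaf count, TR34849|c1_g1_i1 had 1 fragment in leaf, 64 in root, 3158 in bud and 758 in flower. TR37591|c1_g1_i2 had 1, 1221, 618 and 844 fragments in the same order of tissues. Neither unigene carries a description in the annotation used here.

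Near the minimum of 20 fragments the members TR34505|c0_g1_i2, TR43491|c2_g1_i2 and TR44066|c0_g1_i2 each had exactly 20 fragments in their lowest tissue. Just outside, TR31223|c0_g1_i1, TR38372|c0_g1_i1 and TR30550|c2_g1_i2 had 19 there and 0 in leaf. The largest share of summed TPM in 1 tissue was 88.3% for TR44187|c2_g1_i1, followed by 86.9% for TR43943|c1_g2_i2 and 84.6% for TR41320|c3_g10_i1. A single unigene with 0 leaf fragments was left out by the 90% limit. This was TR28317|c0_g1_i1, with 10789 root, 664 bud and 37 flower fragments and 95.9% of its summed TPM in root.

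**Figure D2:**
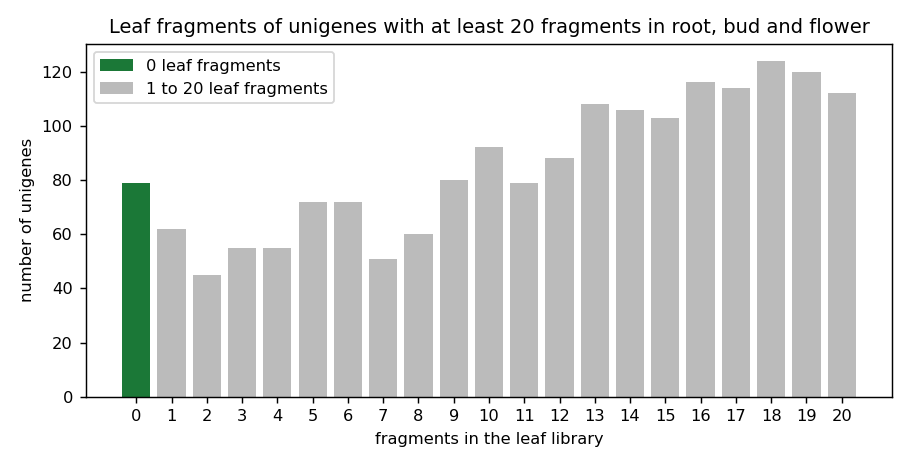
Number of pool unigenes (at least 20 fragments in root, bud and flower, no tissue at 90% or more of summed TPM) by their number of leaf fragments, from 0 to 20. The bar at 0 holds the 79 unigenes described here, and the neighbouring bar at 1 holds 62.

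The same rule was applied with each tissue in turn as the one without fragments. Besides the 79 of 14646 unigenes for leaf (0.539%), it found 291 of 17309 for root (1.68%), 3 of 13190 for bud (0.0227%) and 0 of 13060 for flower. Absence in leaf alone was thus rarer than absence in root alone and more frequent than absence in bud or flower alone. The leaf and root libraries were also the smallest by total, and the part of depth in these counts was not tested.

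Only 2 of the 79 unigenes (2.53%) had a description in the incomplete copies of the annotation tables, against 436 of the pool (2.98%). Most of what follows therefore concerns unigenes known only by their identifiers. No member fell under the words for transposons, pentatricopeptide proteins, kinases, chaperones, ubiquitin or F-box proteins, ribosomal proteins, transporters, terpene synthases, cytochromes P450, transferases, zinc finger proteins or transcription factors, or photosynthesis proteins. Each of these words marked between 2 and 28 pool unigenes. The mevalonate, methylerythritol phosphate and downstream diterpene steps that lead towards aconitine were represented by 52 unigenes, of which 23 were in the pool and 0 were members. The lowest leaf count among those 23 was 9 fragments. Of the 21 cytochrome P450 unigenes listed by the study, 5 were in the pool, 0 were members, and the lowest leaf count of the 5 was 30 fragments. Members made up only 0.539% of the pool, so lists of these sizes would mostly hold none. The lack of members is therefore not a result about these lists or words.

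The first described member was a histone H3, TR34723|c0_g8_i1, of 454 bases. It had 0 fragments in leaf, 28 in root, 795 in bud and 258 in flower, or 0, 20.5, 422 and 128 FPKM. It was at least 219-fold lower in leaf than in bud, at least 66.3-fold lower than in flower and at least 10.6-fold lower than in root. Among the tissues that the rule did not separate, bud was 3.30-fold (2.86 to 3.81) above flower, and root reached only 0.0486 (0.0321 to 0.0708) of the bud level.

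Other histone H3 unigenes divided into those with few and those with many leaf fragments. TR34723|c0_g5_i1, from the same read cluster, had 7 fragments in leaf, 39 in root, 147 in bud and 116 in flower. In contrast, TR37253|c2_g1_i3 had 1188, 1566, 2032 and 2246 fragments in leaf, root, bud and flower, and TR35707|c0_g1_i1 had 1092, 270, 1670 and 1323. Histone H3 transcript was therefore abundant in leaf, with 1070 FPKM summed over 10 unigenes against 1048 in root, 2205 in bud and 1646 in flower, and the absence concerned 1 of these unigenes.

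Histone H4 unigenes were low in leaf throughout. The 16 H4 unigenes summed to 45 fragments in leaf, 215 in root, 3795 in bud and 1501 in flower, or 41.5, 183, 2152 and 818 FPKM. None was a member. Of these, 5 had 0 leaf fragments but too few in root, and TR39336|c2_g1_i1 missed the rule by a single leaf fragment, with 1, 73, 1749 and 646 fragments in leaf, root, bud and flower. Leaf was at least 4-fold under bud in all 15 H4 unigenes that had at least 20 bud fragments and in 5 of 10 H3 unigenes. Over the histone unigenes together this was 20 of 25, against 22.1% of all 28327 unigenes with at least 20 bud fragments. The member TR34723|c0_g8_i1 is among the 20 and among the 5 H3 unigenes, and its place there was fixed by the rule. Histone transcripts are near copies of each other, so the division of fragments among them by the authors' counting is uncertain.

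All 12 unigenes in the read cluster of the histone H3 member, TR34723, were highest in bud. Together they had 55 fragments in leaf, 184 in root, 3841 in bud and 1533 in flower. Of the 12, 4 had 0 leaf fragments. Another such cluster, TR42835, held the member TR42835|c2_g1_i2 with 0, 23, 528 and 180 fragments in leaf, root, bud and flower. Its 15 unigenes, none of them with a description, were all highest in bud and summed to 22, 153, 4187 and 1599 fragments in leaf, root, bud and flower.

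The second described member was TR41402|c0_g1_i1, a glycosyl hydrolase of family 9 with 1777 bases. It had 0 fragments in leaf, 23 in root, 646 in bud and 102 in flower, or 0, 2.98, 60.7 and 8.98 FPKM. Leaf was at least 176-fold under bud, at least 26.1-fold under flower and at least 8.63-fold under root. Bud was 6.76-fold (5.48 to 8.42) above flower, and root reached 0.049 (0.0308 to 0.0742) of the bud level.

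Its orthogroup, a set of unigenes grouped by sequence similarity in the study, was looked at after its values had been seen and held 10 unigenes. Apart from the member, which was picked for its leaf count, 6 of them had at least 20 bud fragments. All 6 had at most 1 leaf fragment, against 7.53% of the 28327 unigenes with at least 20 bud fragments, and in all 6 leaf was at least 4-fold under bud, against 22.1%. These 6 entered the comparison by their bud counts. In root they had 0, 1, 0, 6, 43 and 16 fragments, so low counts were not confined to leaf. The other 3 had under 20 bud fragments. TR40489|c0_g1_i1, described as endoglucanase 8-like, had 605 bud fragments and 0 in leaf, root and flower. The endo-4-beta-glucanase TR41329|c1_g1_i2 lay just outside the rule, with 1, 43, 78 and 40 fragments in leaf, root, bud and flower. The order of the other tissues differed within the orthogroup, since TR27913|c0_g1_i1 had 0 leaf, 0 root, 2 bud and 29 flower fragments.

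**Figure D3:**
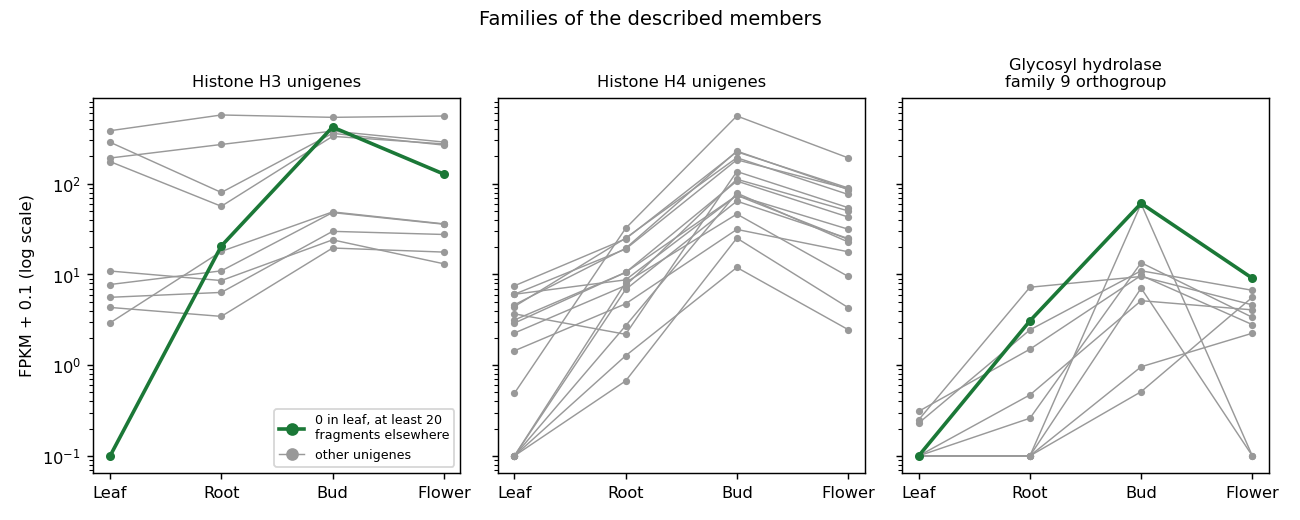
FPKM plus 0.1, on a log scale, of the 10 histone H3, the 16 histone H4 and the 10 glycosyl hydrolase family 9 orthogroup unigenes in leaf, root, bud and flower, 1 line per unigene. Green lines are the 2 described members, with 0 in leaf and 422 and 60.7 FPKM in bud, and grey lines are the other unigenes.

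A further 8 pool unigenes with a description had 1 to 3 leaf fragments and so bordered on the rule. Besides the histone H4 and the endoglucanase already given, they included a beta tubulin (TR36845|c2_g1_i2), a subunit of microtubules, with 3, 77, 127 and 315 fragments in leaf, root, bud and flower. The sulfate, bicarbonate and oxalate exchanger sat-1 (TR40054|c0_g1_i1) had 3, 337, 29 and 68 fragments and was highest in root. So was TR33980|c0_g1_i3, described as a late embryogenesis abundant protein, with 2, 323, 43 and 21 fragments. TR40251|c3_g2_i10, described as related to flavonoid O-methyltransferases, had 3, 661, 87 and 44 fragments. The others, TR27054|c0_g2_i1 and the FAD-binding protein TR37927|c0_g1_i1, had 2, 25, 49 and 95 and 3, 26, 24 and 60 fragments in leaf, root, bud and flower and were highest in flower.

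The tissue with the highest level among root, bud and flower was called only if its ratio to the second highest had an interval above 1. Bud was called highest for 31 of the 79 unigenes (39.2%), against 19.0% of the pool. Root was called highest for 20 (25.3%), against 19.8% of the pool, and flower for 9 (11.4%), against 17.0%. No tissue was called for 19 of the 79, against 6467 of the 14646 pool unigenes, so members were called more often. By the highest level without an interval, bud led in 50.6% of the members and 38.5% of the pool. Root led in 38.0% and 30.9%, and flower in 11.4% and 30.6%. With counts scaled by TMM factors of edgeR the calls were 29 for root, 28 for bud and 8 for flower, against 39.3%, 8.26% and 13.7% of the pool. With DESeq2 size factors they were 31, 28 and 8, against 43.4%, 6.81% and 12.9%. The lead of bud over root in number thus depended on the scaling. As a share of the members, the calls for bud exceeded those of the pool on FPKM and with both factors. The share called for root was above that of the pool on FPKM only, and the share called for flower was below it throughout.

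The most abundant member by summed fragments, TR44354|c0_g1_i4, was among the unigenes highest in bud. It had 0 fragments in leaf, 1469 in root, 6073 in bud and 2342 in flower, or 0, 205, 617 and 223 FPKM. Its leaf level was at least 551-fold under root, the lowest of the other tissues on FPKM, which was the largest such bound among the 79. Bud was 2.77-fold (2.64 to 2.90) above flower, and root was 0.921 (0.863 to 0.984) of flower. The latter is a log2 ratio of -0.12, which TMM factors raise by 0.62 and DESeq2 size factors by 0.73. The order of root and flower in this unigene therefore depended on the scaling. TR44354|c0_g1_i4 was the only unigene kept for its Trinity gene and for its read cluster.

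The read cluster TR42399 gave the 3 members with the highest bud levels. TR42399|c0_g1_i1 had 0, 32.6, 912 and 305 FPKM in leaf, root, bud and flower. TR42399|c2_g3_i1 had 0, 25.6, 856 and 283 FPKM, and TR42399|c2_g4_i3 had 0, 28.0, 771 and 241 FPKM. Their bud-to-flower ratios of 2.99 (2.68 to 3.34), 3.03 (2.83 to 3.24) and 3.20 (3.00 to 3.42) had overlapping intervals, as did their root-to-bud ratios of 0.0358 (0.0243 to 0.0507), 0.0299 (0.0234 to 0.0377) and 0.0363 (0.0293 to 0.0447). These were the 3 lowest root-to-bud ratios of all members. The fourth unigene of the cluster, TR42399|c2_g2_i2, also had 0 leaf fragments but only 15 in root, so it was not a member. As pieces of 1 read cluster these members are not independent observations. Also highest in bud, TR30858|c0_g1_i1 had 0, 127, 685 and 246 fragments in leaf, root, bud and flower. Its leaf level was at least 48.0-fold under root, its lowest other tissue on FPKM, and its bud-to-flower ratio was 2.98 (2.57 to 3.46).

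In 3 members bud exceeded flower by far more. TR31951|c0_g1_i1 had 0, 171, 623 and 25 fragments in leaf, root, bud and flower and a bud-to-flower ratio of 26.6 (17.9 to 41.4). TR43943|c1_g2_i2 had 0, 40, 547 and 23 fragments and a ratio of 25.4 (16.7 to 40.4). TR36688|c0_g1_i1 had 0, 93, 444 and 24 fragments and a ratio of 19.8 (13.1 to 31.2). Their intervals overlapped each other, and none carries a description, although a cytochrome P450 78A3-like unigene, TR43943|c1_g3_i2, lay in the read cluster of the second with 12, 19, 12 and 6 fragments.

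The members highest in root were short, with a median length of 947 bases, against 1401 for those highest in bud. The highest root level, 1537 FPKM, belonged to TR33995|c1_g3_i2, a piece of 250 bases with 0 fragments in leaf, 620 in root, 268 in bud and 43 in flower. TR44187|c2_g1_i1 had 0, 806, 107 and 11.7 FPKM in leaf, root, bud and flower, and its root-to-flower ratio of 68.7 (47.6 to 103) was the highest among the members. TR33995|c1_g1_i2 had 0, 721, 250 and 36.9 FPKM, and its root-to-flower ratio was 19.5 (15.0 to 25.8).

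Root exceeded bud most in 2 members of read cluster TR36270. TR36270|c2_g1_i1 had 0, 1732, 139 and 666 fragments in leaf, root, bud and flower, with a root-to-bud ratio of 17.2 (14.4 to 20.5). TR36270|c0_g1_i1 had 0, 191, 21 and 72 fragments and a ratio of 12.5 (7.96 to 20.7). No unigene of this cluster had a leaf fragment, and the intervals of the 2 ratios overlapped. TR42049|c0_g1_i1 followed with 0, 215, 36 and 48 fragments and a ratio of 8.22 (5.75 to 12).

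Of the 9 members highest in flower, TR36286|c1_g2_i1 had the most fragments, with 0 in leaf, 1137 in root, 940 in bud and 3968 in flower. Its leaf level was at least 257-fold under bud, its lowest other tissue, and bud was 0.253 (0.235 to 0.272) of flower. The highest flower level was that of TR33273|c3_g1_i1, with 0, 167, 113 and 686 FPKM in leaf, root, bud and flower. Bud was 0.164 of flower both in this unigene (0.140 to 0.193) and in TR25025|c0_g1_i1 (0.141 to 0.190), which had 0, 36, 204 and 1331 fragments. The root-to-flower ratio was lowest in TR43424|c0_g1_i1, at 0.0228 (0.0162 to 0.0312), with 0, 39, 689 and 2513 fragments.

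On FPKM, other members were nearly even among root, bud and flower and absent only from leaf. TR36806|c0_g1_i1 had 0 fragments in leaf, 210 in root, 250 in bud and 217 in flower, or 0, 51.8, 44.8 and 36.4 FPKM. Its leaf level was at least 55.5-fold under flower, its lowest other tissue. The root-to-bud ratio of 1.16 (0.958 to 1.39) included 1. The root-to-flower ratio of 1.42 (1.17 to 1.73) and the bud-to-flower ratio of 1.23 (1.02 to 1.48) did not. TMM factors raise root over bud by 0.74 and root over flower by 0.62 on the log2 scale, and DESeq2 size factors by 0.88 and 0.73. The near evenness therefore depended on the scaling. Of the 19 members with no tissue called highest, TR47835|c5_g1_i3 was low in root, with 0, 28, 1041 and 1041 fragments in leaf, root, bud and flower and a bud-to-flower ratio of 1.07 (0.979 to 1.16).

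The rule set the same minimum of 20 fragments in root, bud and flower, but this was not the same level in each. At the median member length, 3 fragments were 0.629 FPKM in root, 0.457 in bud and 0.428 in flower. The limit on the share of summed TPM in any tissue also bounded the ratios among these tissues. For the 79 it rested on root, bud and flower only, since they had no leaf fragments. The part of these limits in the ratios was not tested. Among root, bud and flower, the 79 unigenes were more spread out than the pool. Bud was at least 4-fold above flower in 12 of them (15.2%), against 0.792% of the pool, and at least 4-fold under flower in 3 (3.80%), against 1.84%. Root was at least 4-fold above bud in 7 (8.86%), against 3.71% of the pool, and at least 4-fold under bud in 24 (30.4%), against 6.51%. Root was at least 4-fold above flower in 11 (13.9%), against 3.23%, and at least 4-fold under flower in 16 (20.3%), against 7.31%. For bud and flower the counts stayed at 11 to 12 above and 3 to 4 under with every scaling tried. For root and bud the split became 14 above and 15 under with TMM factors, against 9.25% and 2.41% of the pool, and 15 and 14 with DESeq2 size factors, against 11.1% and 2.04%. For root and flower it became 20 above and 10 under with TMM factors, against 7.84% and 3.50% of the pool, and 21 and 9 with DESeq2 size factors, against 9.06% and 3.11%. The root and flower split was 15 and 14 on TPM, against 4.17% and 6.09%, and 15 and 14 relative to the pool median, against 4.40% and 5.67%.

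**Figure D4:**
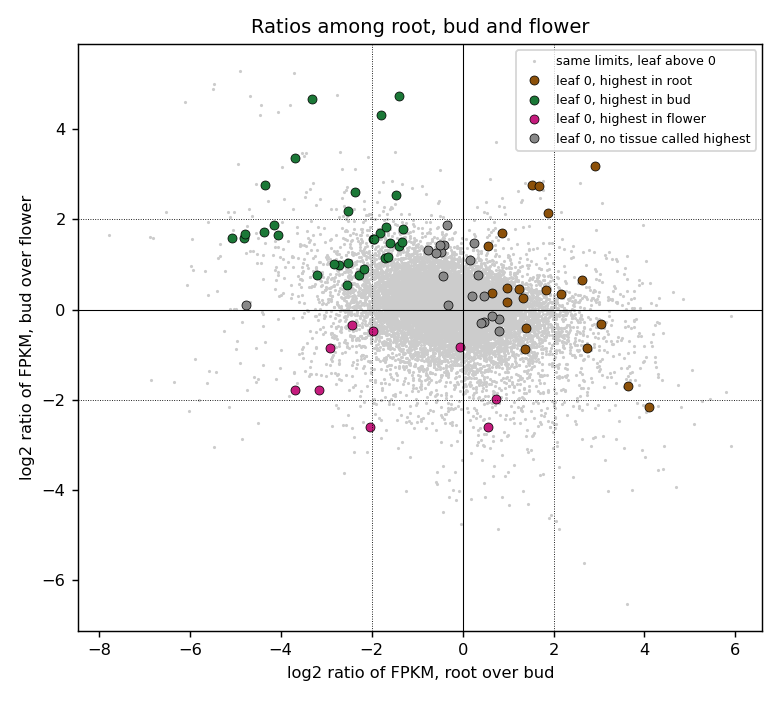
Log2 ratio of FPKM of root over bud (horizontal) against bud over flower (vertical) for the pool, with 1 point per unigene. Grey points are the 14567 unigenes with leaf fragments, coloured points are the 79 unigenes with none, coloured by the tissue called highest, and dotted lines mark 4-fold. Among the 79, 12 lie above the upper dotted line and 3 below the lower one.

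The median log2 ratio of bud over flower was 1.02 for the 79 unigenes and 0.09 for the other 14567, a difference of 0.93. Bud was above flower in 59 of the 79 (74.7%) and in 55.8% of the others. The median log2 ratio of root over flower was 0.31 for the 79 and -0.23 for the others, a difference of 0.54. That of root over bud was -0.58 for the 79 and -0.32 for the others, a difference of -0.26. TMM factors shifted every root-over-bud value by 0.74, root over flower by 0.62 and bud over flower by -0.13 on the log2 scale, and DESeq2 size factors by 0.88, 0.73 and -0.16. The sign of the root-over-bud median turned with either scaling, to 0.16 and 0.31, while the differences between the 79 and the others do not depend on the scaling. They did depend on the minimum count. Among unigenes with at least 50 fragments in root, bud and flower, 28 members and 8433 others, the root-over-bud medians were 0.28 and -0.10, a difference of 0.38 that reversed the -0.26. The difference was 0.23 for root over flower and 0.60 for bud over flower.

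Across the pool the bud-over-flower ratio was ordered by leaf count. Its median log2 value was 1.02 in the 79 unigenes with 0 leaf fragments, 0.68 in the 162 with 1 to 3, 0.28 in the 1552 with 4 to 20 and 0.06 in the 12853 with more. The quartiles of the 79 were -0.02 and 1.66, and those of the last class -0.37 and 0.42, so the classes overlapped widely. Root over flower had medians of 0.31, 0.16, 0.13 and -0.28 in the same classes. Root over bud showed no such order, with -0.58, -0.40, -0.10 and -0.34. The unigenes with no leaf fragment thus lay at the end of a graded series in bud over flower.

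**Figure D5:**
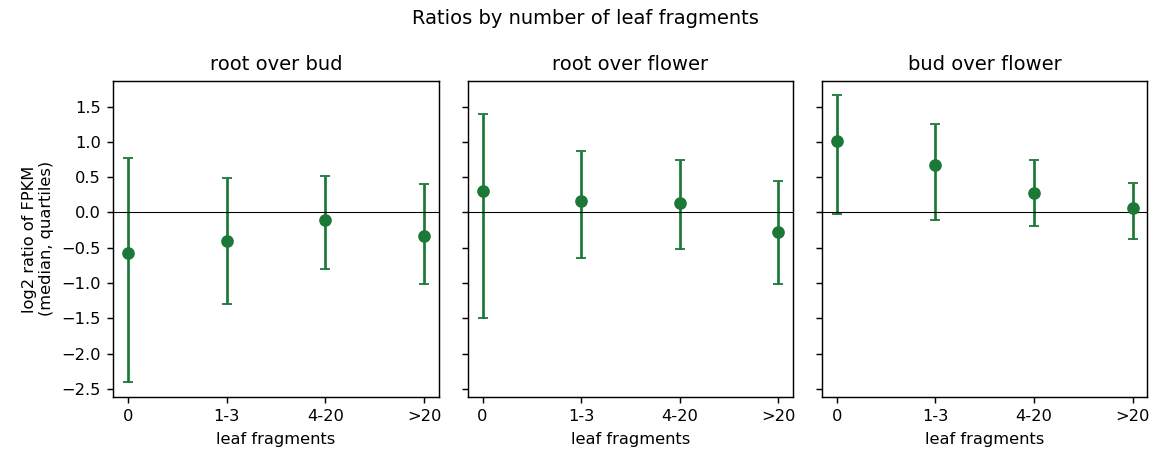
Log2 ratio of FPKM of root over bud, root over flower and bud over flower for pool unigenes with 0, 1 to 3, 4 to 20 and over 20 leaf fragments (79, 162, 1552 and 12853 unigenes). Points are medians and bars span the quartiles over unigenes, not replicates. The bud-over-flower median is 1.02 at 0 leaf fragments and 0.06 above 20.

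The assembly context of the members differed from that of the pool. Of the 79, 59 were the only unigene of their Trinity gene (74.7%), against 44.1% of the pool, and 11 had other unigenes with leaf fragments in that gene (13.9%), against 54.6%. The remaining 9 had other unigenes, all with 0 leaf fragments. The share of sole unigenes was 53.7% among pool unigenes with 1 to 3 leaf fragments, 37.8% with 4 to 20 and 44.5% above 20. Members had a median length of 1162 bases, with quartiles of 764 and 1624, against 1398 bases, with quartiles of 928 and 1980, for the other 14567. Length did not set them apart from unigenes with few leaf fragments, whose medians were 1133 bases with 1 to 3 leaf fragments, 1081 with 4 to 20 and 1446 above 20. In the 20 members that shared a Trinity gene with other unigenes, the median share of the gene's transcripts was 61.7% in root, 52.6% in bud and 51.3% in flower, against 45.9%, 44.8% and 45.1% in the 8169 others of this kind.

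For 68 members the whole Trinity gene lacked leaf fragments. In 59 of these the member was the only unigene of the gene, so the leaf count of the gene was set by the rule. Other unigenes of the gene also lacked leaf fragments for the remaining 9. For 50 members the whole read cluster lacked leaf fragments. Of these 50, 30 were the only unigene of their cluster. In the other 20, further unigenes of the same cluster also had no leaf fragment, but some of these were members themselves. The cluster TR43491 held only its 2 members, whose leaf count of 0 was set by the rule. Some clusters had few fragments beyond the member. TR42463 had 54, 46 and 35 fragments in root, bud and flower, of which its member held 53, 37 and 35. Another of these clusters, TR44388, held the member TR44388|c0_g2_i1 with 0, 32, 780 and 228 fragments in leaf, root, bud and flower. Its 6 unigenes together had 0, 54, 1247 and 370 fragments.

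For 3 members the Trinity gene had over 20 leaf fragments on its other unigenes. The 5 unigenes of TR33995|c1_g1, which include the members TR33995|c1_g1_i1 and TR33995|c1_g1_i2, summed to 50 fragments in leaf, 1625 in root, 2095 in bud and 4113 in flower. The gene as a whole was still 58.9-fold lower in leaf than in its lowest other tissue by summed FPKM. Its 2 members differed from each other, since TR33995|c1_g1_i1 had 0, 112, 837 and 1133 fragments in leaf, root, bud and flower and TR33995|c1_g1_i2 had 0, 805, 386 and 61. For TR46945|c1_g4, with the member TR46945|c1_g4_i7 at 0, 26, 23 and 27 fragments, the gene summed to 41, 66, 137 and 107 and was only 2.92-fold lower in leaf than in its lowest other tissue. Of its leaf fragments, 40 lay on TR46945|c1_g4_i3.

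The Trinity gene TR44187|c2_g1 had 12 leaf fragments on other unigenes, beside 8703 in root, 2444 in bud and 385 in flower, and was 28.4-fold lower in leaf than in flower by summed FPKM. TR42835|c2_g1 had 4 leaf fragments beside 39, 930 and 361 in root, bud and flower. In the gene TR30627|c0_g1, its members TR30627|c0_g1_i1 and TR30627|c0_g1_i3 had 0, 48, 38 and 47 and 0, 106, 74 and 57 fragments in leaf, root, bud and flower, and the gene as a whole had 1 leaf fragment. The other 4 members in such genes had between 1 and 3 leaf fragments elsewhere in the gene.

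At the level of read clusters, the largest leaf count beside a member was in TR46864. The member TR46864|c0_g2_i1 had 0, 35, 432 and 1592 fragments in leaf, root, bud and flower, while the whole cluster had 515, 47, 1042 and 3937. TR46864|c0_g1_i1, another Trinity gene of that cluster, had 253, 7, 541 and 1931 fragments. In cluster TR40275 the member TR40275|c4_g6_i1 had 0, 293, 162 and 145 fragments, whereas TR40275|c4_g4_i3 was almost confined to leaf, with 145, 0, 3 and 3. Unigenes of 1 read cluster can share stretches of sequence, and how reads common to them were divided among tissues was not tested.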

How the data were processed

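The authors cleaned the reads with Trimmomatic and pooled the 4 tissues for a Trinity assembly, which was made non-redundant with CD-HIT-EST. Bowtie 2 alignments of each library to it were quantified by the authors with RSEM. The deposited expected counts are fragments assigned to each unigene without normalization, and all were whole numbers. The deposited FPKM values are scaled to effective length and library total, the deposited TPM values to a fixed sum, and the deposited isoform percent is a unigene's share of its Trinity gene. A deposited joint FPKM table held the same values for the members to within rounding.

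Members were chosen by rule from expected counts and TPM, and the members and lists were chosen with earlier results of these data known. Ratios used counts over effective length and library total. Intervals for single unigenes were exact 95% Poisson or conditional binomial intervals. With 1 library per tissue no test was made. For a count of 0 the upper limit was set at 3 fragments. TMM factors of edgeR 4.0.16 and size factors of DESeq2 1.42.0 (R 4.3.3) came from 46663 unigenes with at least 20 summed fragments. Other steps used scipy 1.17.1, pandas 2.3.3 and numpy 2.4.6 under Python 3.11.15. The ratio procedure was tested on simulated data.

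The unigenes named were the described members, the 3 highest in each of root, bud and flower, the 5 with the largest bound against leaf, the 5 with the most fragments in Trinity genes without leaf fragments, the 5 with the most leaf fragments elsewhere in their gene, those nearest each limit, those in Trinity genes with several members, and the 3 highest and 3 lowest ratios of each pair. Unigenes named as examples of a read cluster, the read clusters and the glycosyl hydrolase orthogroup were chosen after their values were seen. Descriptions came from incomplete copies of the study's annotation tables, and no sequence of the unigenes was used here.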

Additional observations from a re-analysis of the deposited data

How the results depend on the processing

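No paired analysis was possible because each tissue has 1 library. Alternatives with centring, read clusters, histones or the leaf bound, and the pool values under other scalings and with at least 50 fragments, were chosen after seeing the data. Of 105 alternatives, 3 reversed the sign of a median, 40 moved a count by over 1.5 times or a median out of its interval, and 62 did neither. That interval was taken over the members as if they were independent, which pieces of 1 read cluster are not. It does not measure counting error. The exact Poisson upper limit of leaf, 0.686 FPKM against 0.558, was placed among the 62 without such a comparison. The number of members was 187 with a minimum of 10 fragments in root, bud and flower, 28 with 50 and 11 with 100, and 141 and 241 with up to 1 and 3 leaf fragments allowed. With minimums of 10 and 50 the rule found 644 and 121 unigenes silent only in root, 8 and 0 only in bud, and 1 and 0 only in flower. The number of members with leaf fragments elsewhere was 5 and 3 with at least 4 and 20 such fragments, 23 over Trinity components and 29 over read clusters. The median log2 ratio of root over bud was reversed to 0.16 with TMM factors, 0.31 with DESeq2 size factors and 0.28 in the 28 members with at least 50 fragments, and that of root over flower moved to 0.93 and 1.03 with both scalings. The cause of the change in the members with at least 50 fragments was not tested. With TMM factors 14 members were at least 4-fold higher and 15 lower in root than in bud, and 20 higher and 10 lower in root than in flower. With DESeq2 size factors these were 15, 14, 21 and 9, and 31 members were highest in root. At 2-fold, 15 were higher and 38 lower in root than in bud (12.7% and 25.3% of the pool). Also at 2-fold, 27 were higher and 23 lower in root than in flower (13.1% and 24.4%). In bud, 40 were higher and 7 lower than in flower (6.18% and 7.54%). At 8-fold, 3 were higher and 13 lower in root than in bud (1.10% and 1.78%), 6 higher and 8 lower in root than in flower (1.02% and 2.25%), and 5 higher and 0 lower in bud than in flower (0.191% and 0.457%). The median bound against leaf was 8.98-fold without the most abundant leaf unigene in the total and 8.91-fold on TPM. Depth limits the leaf level of a member to the 3 fragments allowed by a count of 0, and with 1 library per tissue, tissue and plant cannot be told apart.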
